A study of Bos taurus with 14 samples.

Results

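Slow-myosin-rich muscle was compared with slow-myosin-poor muscle among 14 bulk RNA sequencing libraries of cattle longissimus dorsi, a loin muscle in which slow and fast fibres lie side by side. In each library the reads of MYH7, the slow myosin heavy chain, were divided by the summed reads of MYH7, MYH2 (the fast IIa chain) and MYH1 (the fast IIx chain). The 5 animals with the highest share, called slow-rich here, were set against the 5 with the lowest, called slow-poor, and the remaining 4 of the 14 lay between. These groups were defined from the measured counts and are not groups of the study, so the 3 myosins that chose them were left out of every test and of the library sizes.

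Each library came from 1 female animal at postnatal day 485. The dams of 7 control animals were fed 100% of their stated requirement from gestation day 158 to calving, and those of 7 restricted animals were fed less, a level that the series design puts at 70% and the treatment protocol at 50%. After birth all animals were reared alike and fed freely from day 301. The slow-rich group held 3 control and 2 restricted animals, the slow-poor group 2 control and 3 restricted animals, and the animals between were 2 of each, and diet was a covariate in the fits. Common parentage among the animals is not recorded in the labels.

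Slow fibres contract slowly, tire late and draw mainly on mitochondrial oxidation, whereas fast fibres contract quickly and draw more on glycogen and glycolysis. Most proteins of the contractile filaments, and several of the sarcoplasmic reticulum that stores and releases calcium, exist in a slow and a fast form made by separate genes. Nerve activity, calcineurin signalling and the coactivator PGC-1alpha, the product of PPARGC1A, are known to favour the slow programme. Cattle longissimus is mostly fast, and its mix of fibres is studied for meat colour and tenderness.

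The slow share was 17.7% in restricted 6, 17.7% in control 1, 17.2% in control 4, 16.5% in control 6 and 15.7% in restricted 1, the slow-rich animals. It was 11.8% in restricted 5, 11.2% in restricted 2, 10.6% in control 2, 9.83% in restricted 4 and 9.73% in control 7, the slow-poor animals. The step at the boundary was small, since the nearest animal outside the slow-rich group had 15.2% and the nearest outside the slow-poor group 12.3%. Mean shares were 16.9% ± 0.870 (SD, n = 5) and 10.6% ± 0.887 (SD, n = 5), which only describes how the groups were chosen. The MYH1 share ran from 61.4% to 66.6% in slow-rich and from 68.4% to 76.1% in slow-poor muscle, while the MYH2 share overlapped, at 16.9% to 20.9% and 13.3% to 19.8%. Restricted 3, between the groups, had the highest MYH2 share of the 14 animals, 26.3%, and its MYH1 share of 61.4% lay at the slow-rich level although its slow share was only 12.3%. The 3 shares thus did not move along a single axis, and every library was mainly fast.

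**Figure D1:**
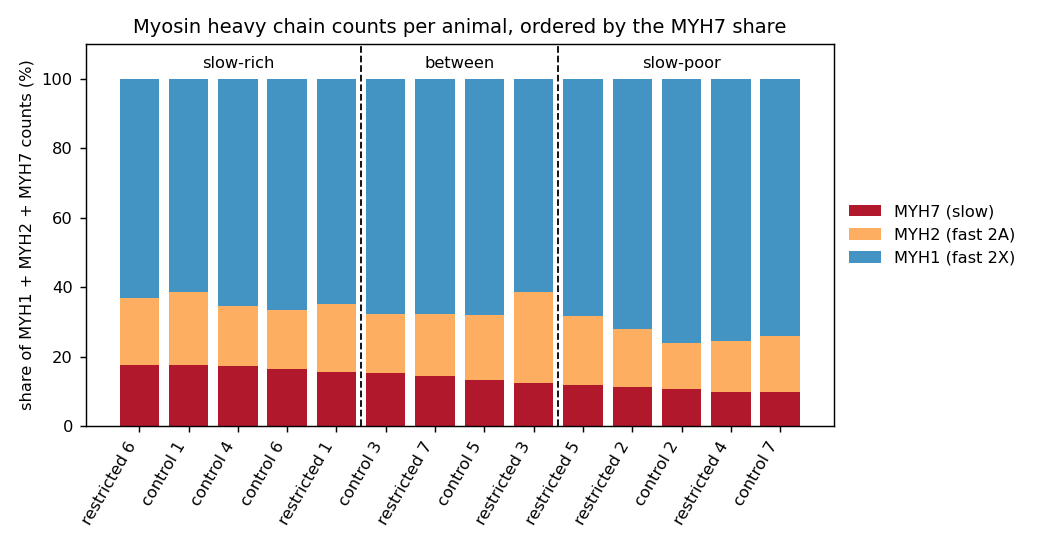
Stacked bars give, for each of the 14 animals, the share in percent of MYH7, MYH2 and MYH1 in the summed counts of the 3 genes, ordered by the MYH7 share, with dashed lines between the slow-rich, in-between and slow-poor animals. MYH7 falls from 17.7% at the left to 9.73% at the right without a gap, and restricted 3 stands out by its MYH2 share of 26.3%.

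Depth ran from 13631018 to 17325779 counts per library and did not separate the groups (two-sided exact permutation p = 0.968 over all assignments of 5 of 10 animals, whose smallest possible p is 0.00794). The muscle markers ACTA1, CKM, MB, DES and RYR1 were at 3807 CPM (counts scaled to a common library total) or more in all 14 libraries. CACNA1S, the voltage sensor of the muscle calcium channel, was at 692 CPM or more. Sample titles begin with R or Y and end with A or B, codes for which no key was found. R occurred in 2 slow-rich animals and 1 slow-poor animal, and each of these groups had 3 A and 2 B.

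With 5 against 5 animals, 0 of the 12548 genes that passed the filter on low counts (0.00%) reached an adjusted p below 0.05 in edgeR's quasi-likelihood test, and the smallest adjusted p was 0.160. At an unadjusted p below 0.05 there were 761 genes (6.06%), 452 with a higher level in slow-rich muscle (3.60%) and 309 with a lower level (2.46%). DESeq2, another count test on the same animals, called 39 genes higher (0.344%) and 7 lower (0.0618%) of 11322, and limma voom called 0. Without restricted 1 the edgeR test called 1 gene, MYOM3. The contrast therefore rests on which genes stand at the top of the list, on their sizes and on whether the groups overlap, not on calls of the main test. Ratios below are slow-rich over slow-poor from the edgeR fit with 95% intervals, and none passed that test after adjustment. CPM values use TMM library scaling and leave MYH1, MYH2 and MYH7 out of the total. They are listed for the slow-rich animals in the order restricted 6, control 1, control 4, control 6, restricted 1, and for the slow-poor animals in the order restricted 5, restricted 2, control 2, restricted 4, control 7.

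The slow forms of the contractile proteins were the clearest group. All 13 genes of the slow sarcomere list had a ratio above 1, where 50.7% of all tested genes did. Of these, 10 had an unadjusted p below 0.05, against 3.60% of all genes, and in 8 the 5 slow-rich animals all lay above the 5 slow-poor animals, against 0.661% of all genes. The median log2 ratio of the list was 0.70, and that of all tested genes was 0.00. In bulk muscle such a difference can come from more slow fibres or from more RNA per slow fibre in the slow-rich animals, and these cannot be told apart here. DESeq2 called 8 of the 13 higher, against 0.344% of 11322 genes, and edgeR called 0. The 8 were MYL2, TNNT1, TPM3, MYH7B, MYOZ2, TNNI1, MYL3 and TNNC1. Genes of the same fibre type tend to vary together between animals, so a count of 13 is not 13 separate observations.

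MYL2 (ENSBTAG00000018369), the slow regulatory light chain that sits on the neck of the myosin head, had the smallest p of all genes. Its level was 7124, 8014, 7913, 7099 and 7488 CPM in the slow-rich animals and 5316, 5562, 4173, 4826 and 4732 CPM in the slow-poor animals, a ratio of 1.55 (1.34 to 1.80). Every slow-rich animal lay above every slow-poor animal, and the spread within each group was small beside the step between them. The essential light chain MYL3 was also apart, at 641 to 1400 CPM against 402 to 609 CPM, a ratio of 1.89 (1.41 to 2.52). MYL6B, a second slow essential light chain, had the ratio 2.98 (1.57 to 5.67) but overlapped. It stood at 259, 499, 218, 366 and 95.7 CPM against 90.3, 151, 53.4, 76.2 and 82.1 CPM. Restricted 1 thus had the highest MYL3 and the lowest MYL6B of the slow-rich animals, so the slow light chains did not move as a block among them.

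The troponin complex, which lets calcium switch on contraction, and tropomyosin, the strand that it moves along actin, showed the same direction in each slow member. TNNT1 (ENSBTAG00000006419), slow troponin T, was at 3132, 3555, 2408, 3348 and 2428 CPM in slow-rich and 1528, 1857, 1313, 1811 and 1458 CPM in slow-poor muscle, a ratio of 1.90 (1.52 to 2.36). The groups did not overlap, and control 4 and restricted 1 were the lower slow-rich animals. TNNI1, the inhibitory slow troponin, ran from 1194 to 1729 CPM against 601 to 941 CPM, with the ratio 1.66 (1.34 to 2.07). TNNC1, the calcium-binding troponin of slow and cardiac muscle, differed least, at 4478 to 5648 CPM against 3482 to 4368 CPM, a ratio of 1.32 (1.14 to 1.53). TPM3, slow tropomyosin, was at 3948, 3326, 2587, 2783 and 3677 CPM against 2090, 2040, 1719, 2055 and 2291 CPM, a ratio of 1.64 (1.37 to 1.94). In all of these slow-rich muscle was higher with no overlap, and the order of animals within a group changed from gene to gene.

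Among proteins of the Z-disc, the plate that anchors actin, MYOZ2, which binds calcineurin there, had the ratio 1.62 (1.32 to 1.99). It lay at 431 to 615 CPM in slow-rich and 259 to 380 CPM in slow-poor animals. CSRP3, a muscle LIM protein that responds to stretch, had the largest ratio of the list, 3.74 (1.97 to 7.09), from 204, 150, 370, 95.6 and 383 CPM against 44.8, 53.8, 44.3, 47.8 and 132 CPM. It was also uneven: control 7, the animal with the lowest slow share, had more CSRP3 than control 6 of the slow-rich group. ANKRD2, a titin-binding stretch protein, had the ratio 1.52 (0.952 to 2.42) with wide spread in slow-rich muscle, 45.8 to 132 CPM. MYBPC1, the slow myosin-binding protein C, was abundant everywhere, 12835 to 16046 CPM against 10642 to 15553 CPM, with the ratio 1.1 (0.917 to 1.31). The slow-poor animal restricted 4 had more of it than 4 of the 5 slow-rich animals.

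The other myosins of cardiac or slow type call for care, because their sequences resemble MYH7 and how reads with several alignments were counted is not given in the sources used here. MYH7B, an ancient slow-type chain, was apart at 142 to 226 CPM against 93.6 to 120 CPM, a ratio of 1.59 (1.31 to 1.93). MYH6, the alpha cardiac chain, did not follow the slow share. It was at 20.03, 31.4, 181, 260 and 16.7 CPM in slow-rich and 12.9, 150, 16.2, 283 and 9.22 CPM in slow-poor muscle, a ratio of 1.21 with an interval from 0.0621 to 23.7. Each group held 2 animals at 150 CPM or more and 3 at 31.4 CPM or less, with none between.

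**Figure D2:**
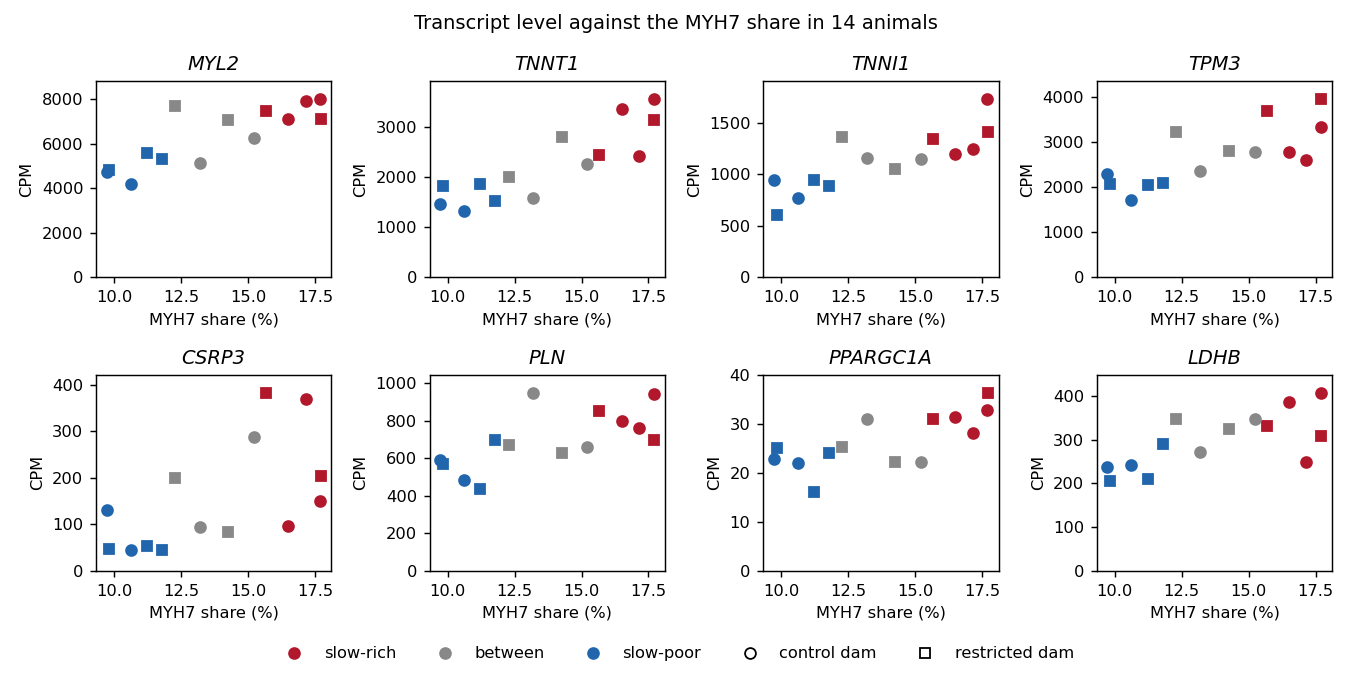
Each panel plots 1 gene, with the MYH7 share in percent on the horizontal axis and CPM on the vertical axis from 0, for the 14 animals (circles, control dams; squares, restricted dams; red, slow-rich; grey, between; blue, slow-poor). MYL2, TNNT1, TNNI1, TPM3, PLN and PPARGC1A have no slow-poor animal at the slow-rich level, whereas CSRP3 and LDHB overlap.

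The 4 animals between the groups were not used in the contrast, and their levels describe what happens between its ends. Their mean was 6534 CPM for MYL2, 2157 CPM for TNNT1, 1178 CPM for TNNI1 and 2778 CPM for TPM3, each between the means of the 2 groups. Restricted 3 departed from this: with a slow share of 12.3% it had 7676 CPM of MYL2, 1361 CPM of TNNI1 and 18056 CPM of MYBPC1, at or above the slow-rich level. Its TNNT1, 1994 CPM, lay below that of every slow-rich animal. Control 5, at 13.2%, had 5127 CPM of MYL2 and 1580 CPM of TNNT1, inside the slow-poor range. A slope on the share over all 14 animals, which share 10 with the contrast and add no independent support, gave 10 positive slopes of the 13 genes at an unadjusted p below 0.05 (3.45% of all 12752 genes). In that edgeR test 0 of the 12752 genes reached an adjusted p below 0.05 (0.00%, smallest adjusted p 0.0756), while 440 positive and 277 negative slopes (2.17%) had an unadjusted p below 0.05. DESeq2 called 37 and voom 1 (TNNT1), and edgeR called MYOM3 without restricted 1 and MYL2 without restricted 3.

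The fast forms differed less than the slow forms. Of the 14 genes of the fast sarcomere list 13 had a ratio below 1, where 49.3% of all tested genes did, yet 0 had groups without overlap and 2 had an unadjusted p below 0.05 (2.46% of all genes). That count was 5 without control 2, 1 without control 4, restricted 4 or restricted 6 and 0 without control 7. The list's median log2 ratio was -0.18. MYL1, the fast essential light chain, was at 10811, 10691, 9183, 8962 and 11884 CPM in slow-rich and 12685, 14356, 10740, 13305 and 12465 CPM in slow-poor muscle, a ratio of 0.836 (0.727 to 0.961). Among the slow-poor animals control 2 alone lay in the slow-rich range. MYLK2, the kinase of the fast regulatory light chain, had the ratio 0.820 (0.687 to 0.977). MYLPF, the fast regulatory light chain, and TPM1, a main tropomyosin of fast fibres, were the 2 most abundant, with ratios of 0.887 (0.750 to 1.05) and 0.873 (0.737 to 1.03). Fast troponins TNNT3, TNNI2 and TNNC2 had ratios of 0.900, 0.896 and 0.861, MYBPC2 had 0.862, and MYOZ1 had 1.04, all with intervals that include 1.

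MYH4, the fastest IIb chain, which adult cattle muscle is known to use little, was not tied to the slow share. It was at 22.2, 115, 338, 25.3 and 825 CPM in slow-rich and 24.4, 320, 735, 819 and 23.7 CPM in slow-poor animals, a ratio of 0.679 (0.132 to 3.49). Adding its counts to the denominator of the share gave the same 2 groups. MYH8, the perinatal chain, was at 61.2 to 76.5 CPM in all slow-rich animals and spread from 14.5 to 70.0 CPM in slow-poor animals, a ratio of 1.92 (1.19 to 3.09). The spread differed more than the ends, since restricted 2 of the slow-poor group was as high as the slow-rich animals. Nonmuscle MYH9, found in all cells, was just apart at 122 to 145 CPM against 98.6 to 120 CPM. MYH14, another nonmuscle chain, had the ratio 1.18 (1.03 to 1.36).

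Setting each slow gene against its fast counterpart per gene length gives a share within the pair that does not depend on scaling between libraries. In 8 of 11 pairs the slow share of the pair lay higher in all slow-rich than in all slow-poor animals. The pairs reuse genes of the lists described here, so this count is not further support, and no such share was computed for other pairs of genes. Slow troponin T made up 17.9% ± 2.40 (SD, n = 5) of TNNT1 plus TNNT3 in slow-rich and 9.34% ± 0.631 (SD, n = 5) in slow-poor muscle. Slow troponin I made up 26.5% ± 1.95 (SD, n = 5) and 15.9% ± 2.48 (SD, n = 5) of its pair. For MYL2 with MYLPF the values were 43.0% ± 2.37 (SD, n = 5) and 30.0% ± 1.83 (SD, n = 5), the largest slow fraction of these 3 pairs. MYL3 with MYL1 gave 7.81% and 3.61%, TPM3 with TPM1 30.2% and 18.8%, TNNC1 with TNNC2 23.3% and 16.6%, and MYOZ2 with MYOZ1 16.4% and 11.1%. CASQ2 with CASQ1 gave 0.725% and 0.330%, and its groups came close, at 0.448% for the lowest slow-rich and 0.415% for the highest slow-poor animal. The pairs that overlapped were MYBPC1 with MYBPC2, ATP2A2 with ATP2A1 and LDHB with LDHA.

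**Figure D3:**
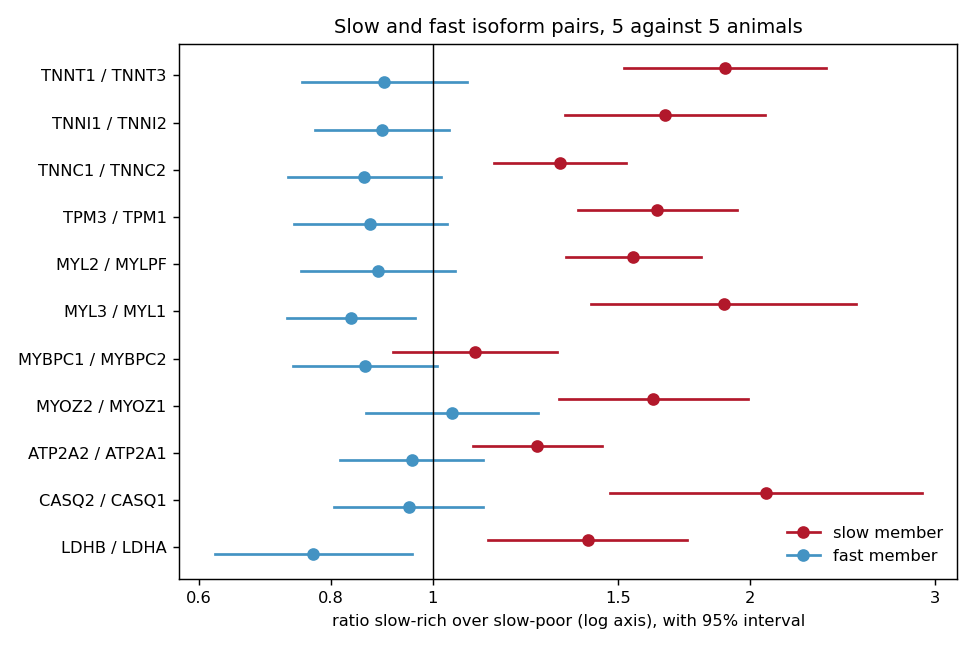
For 11 pairs of a slow (red) and a fast (blue) isoform, points give the ratio of slow-rich over slow-poor muscle on a log axis and lines its 95% interval, from 5 against 5 animals. All 11 slow members lie above 1 and 10 of the 11 fast members below 1, the fast ones closer to 1 than most slow ones.

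Sarcomere genes listed as shared by both fibre types also leaned to the slow-rich side. Of 38 listed 35 were named in the table and all 35 passed the filter, 28 had a ratio above 1 (80.0%, against 50.7% of all tested genes) and 9 of these had an unadjusted p below 0.05 (25.7%, against 3.60%). The median log2 ratio was 0.15, and 0 genes were apart (0.661% of all genes). Within restricted animals alone 20 were above 1 and 3 had such a p. The following members were picked from the list after their p-values were seen. ACTN2, the alpha-actinin that crosslinks actin in the Z-disc of every fibre, was at 3070, 2416, 1917, 2125 and 2512 CPM in slow-rich and 1644, 1694, 1382, 1586 and 1963 CPM in slow-poor muscle, a ratio of 1.48 (1.22 to 1.79). The overlap was a single pair, with control 7 above control 4. MYOM3, listed as shared although it is an M-band protein of slow and intermediate fibres, had the ratio 1.72 (1.26 to 2.36). FHL1, a LIM protein of the sarcomere, had 1.34 (1.15 to 1.56). DES, the desmin filament around the Z-disc, had 1.35 (1.09 to 1.68), and FLNC, the muscle filamin, 1.26 (1.07 to 1.5). LMOD2, a protein of the thin filament, had 1.37 (1.09 to 1.73), and XIRP1, found at sites of repair, 1.93 (1.25 to 2.97). The 2 most abundant members did not share this: ACTA1, skeletal actin, had 1.02 (0.840 to 1.25) and TPM2, beta tropomyosin, 1.17 (0.918 to 1.5).

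Calcium handling split by isoform. The slow calcium list had 3 of its 4 genes named in the table. All 3 were higher in slow-rich muscle at an unadjusted p below 0.05, against 3.60% of all genes. The median log2 ratio was 0.54. PLN, phospholamban, which brakes the slow calcium pump, was at 698, 943, 764, 801 and 850 CPM in slow-rich and 696, 438, 483, 571 and 592 CPM in slow-poor muscle, a ratio of 1.46 (1.19 to 1.79). The groups touched at 698 and 696 CPM without overlap. CASQ2, the calcium buffer of slow and cardiac reticulum, was at 65.3, 46.3, 42.9, 45.6 and 27.3 CPM against 18.5, 33.4, 20.6, 19.4 and 20.02 CPM, a ratio of 2.07 (1.48 to 2.92). Restricted 1 and restricted 2 were the animals that overlapped. ATP2A2, the slow calcium pump SERCA2, had 3461 to 4256 CPM against 2841 to 3653 CPM and the ratio 1.26 (1.09 to 1.45).

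Fast and shared calcium genes gave no such step. ATP2A1, the fast pump SERCA1, was at 12871 to 14330 CPM in slow-rich and 12117 to 17137 CPM in slow-poor muscle, a ratio of 0.955 (0.817 to 1.12). CASQ1, the fast calcium buffer, had 0.949 (0.805 to 1.12). All 4 genes of the fast calcium list had ratios below 1, against 49.3% of all tested genes, with 0 at an unadjusted p below 0.05. Of the 33 shared calcium genes 12 had a ratio above 1 (36.4%, against 50.7% of all tested genes), and the median log2 ratio was -0.02. At that p 1 was higher (3.03%, against 3.60% of all genes) and 2 were lower (6.06%, against 2.46%), so the share of higher genes was no larger than the background. The single higher gene was S100A1, a calcium sensor that enhances the release channel, with the ratio 1.68 (1.15 to 2.47). The lower ones were CALM3, a calmodulin gene, at 0.845 (0.722 to 0.988) and JPH1, which ties the reticulum to the surface membrane, at 0.877 (0.776 to 0.991). RYR1, the release channel itself, had 1.11 (0.891 to 1.40) and SLN, sarcolipin, a small inhibitor of the pump, 1.04 (0.804 to 1.34). The count of 1 higher gene was 2 without control 4, and the count of 2 lower genes was 1 without control 2, control 4, restricted 2 or restricted 4 and 0 without control 1, restricted 1, restricted 5 or restricted 6. S100A1, CALM3 and JPH1 were named after their values were seen.

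Genes of the calcineurin and calmodulin kinase list were mixed, 7 of 16 above 1 (43.8%, against 50.7% of all genes) with a median log2 ratio of -0.04. RCAN2, a regulator of calcineurin, was apart at 10.2, 11.6, 6.93, 13.1 and 7.72 CPM against 6.38, 4.004, 6.72, 3.99 and 4.58 CPM, a ratio of 1.86 (1.35 to 2.57). RCAN1, a regulator that calcineurin itself induces, had the same ratio, 1.86, with a wider interval (1.04 to 3.32) and groups that overlapped. The catalytic subunit PPP3CB and the regulatory subunit PPP3R1 of calcineurin lay on the other side, at 0.879 (0.781 to 0.990) and 0.820 (0.704 to 0.955). These 4 genes were the only members of the list at an unadjusted p below 0.05, 2 on each side (12.5%, against 3.60% of all genes above and 2.46% below). The count of 2 above 1 was 1 without control 1, control 7, restricted 1, restricted 2 or restricted 4. The count of 2 below 1 was 1 without control 4, control 6, control 7 or restricted 2 and 0 without restricted 6.

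Of 34 tested regulators of fibre type 22 had a ratio above 1 (64.7%, against 50.7% of all tested genes) and 3 of these an unadjusted p below 0.05 (8.82%, against 3.60%), with a median log2 ratio of 0.03. The count of 3 was 5 without restricted 5, and the count of 0 on the lower side was 3 without restricted 6 and 1 without control 2 or restricted 4. The median was 0.12 within control animals alone and -0.05 within restricted animals alone. PPARGC1A was 1 of these, at 36.4, 33.0, 28.2, 31.5 and 31.0 CPM in slow-rich and 24.0, 16.2, 22.1, 25.2 and 22.9 CPM in slow-poor muscle, a ratio of 1.46 (1.21 to 1.76). The groups did not overlap, and control 5 with 31.0 CPM was the only in-between animal at the slow-rich level. PPARA, a nuclear receptor for fatty acids, had 1.30 (1.07 to 1.58) and ESRRB, an orphan receptor of the oestrogen-related family, 1.61 (1.11 to 2.33), both named after their values were seen. The 2 most abundant members were near 1: PERM1, a muscle coregulator downstream of PGC-1alpha, had 1.01 (0.868 to 1.17) and PRKAG3, the glycolytic-muscle subunit of AMP kinase, 1.02 (0.745 to 1.39).

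Glycolysis lay on the slow-poor side. Of 21 genes 18 had a ratio below 1 and 4 of them an unadjusted p below 0.05, against 2.46% of all genes, and the median log2 ratio was -0.16. Without control 1 the count was 7. The 4 were GPI, FBP2, PFKM and LDHA. GPI, which turns glucose phosphate into fructose phosphate, was apart at 1266, 1479, 1334, 1356 and 1381 CPM in slow-rich and 1615, 1908, 1539, 1588 and 1666 CPM in slow-poor muscle, a ratio of 0.821 (0.718 to 0.938). Such a gap below was found for 0.518% of all genes. FBP2, the muscle fructose bisphosphatase, is listed with glycolysis but works in the opposite direction. It was at 440, 412, 356, 438 and 530 CPM against 555, 479, 612, 721 and 685 CPM, a ratio of 0.717 (0.587 to 0.877). Restricted 1 and restricted 2 accounted for the overlap. PFKM, the muscle phosphofructokinase that sets the pace of the pathway, had 0.814 (0.695 to 0.952). The most abundant members, ALDOA and GAPDH, had 0.866 (0.747 to 1.0) and 0.899 (0.751 to 1.08). A single gene was higher at that p, PFKFB3, which makes the activator of phosphofructokinase, with 2.18 (1.15 to 4.17) and a range from 68.7 to 343 CPM within slow-rich muscle. The ratio of PFKFB3 was 1.36 without restricted 6, and the count of 1 higher gene was 0 without control 4, restricted 5 or restricted 6. These genes, other than ALDOA, GAPDH and LDHA, were named after their values were seen.

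Glycogen genes were alike, with 15 of 19 below 1 (against 49.3% of all tested genes), 3 at an unadjusted p below 0.05 and a median log2 ratio of -0.14. That share of 15.8% stood against 2.46% of all genes. The count of 3 was 1 without any of control 6, control 7, restricted 4, restricted 5 or restricted 6. PGM1, which links glycogen to glycolysis, was at 2860 to 3457 CPM in slow-rich and 3352 to 4218 CPM in slow-poor muscle, a ratio of 0.834 (0.716 to 0.972). PYGM, muscle glycogen phosphorylase, had 0.881 (0.766 to 1.01), and PPP1R3A, which brings phosphatase to glycogen, 0.793 (0.639 to 0.983). PPP1R3A was named for its p after it was seen. Glucose uptake showed 0 genes at an unadjusted p below 0.05 among 12, or 1 without control 7 or restricted 1, with TXNIP, an inhibitor of uptake, at 1.04 (0.782 to 1.37) and TBC1D4, which holds glucose transporters inside the cell, at 1.03 (0.861 to 1.23).

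At the fork between lactate and mitochondria, 17 of 22 genes had a ratio above 1 (77.3%, against 50.7% of all tested genes) and 5 of these an unadjusted p below 0.05 (22.7%, against 3.60%), with a median log2 ratio of 0.14. LDHB, the heart-type lactate dehydrogenase subunit, was at 308, 407, 248, 387 and 330 CPM in slow-rich and 289, 211, 241, 205 and 238 CPM in slow-poor muscle, a ratio of 1.40 (1.13 to 1.74). LDHA, the muscle-type subunit, ran the other way, at 4468, 5374, 5092, 4492 and 3694 CPM against 6851, 6701, 4822, 4828 and 6377 CPM, a ratio of 0.770 (0.621 to 0.956). Per length, LDHB made up 6.95% ± 1.44 (SD, n = 5) of the pair in slow-rich and 3.96% ± 0.640 (SD, n = 5) in slow-poor muscle. Control 4 of the slow-rich group, at 4.72%, fell below control 2 of the slow-poor group, at 4.83%. The other 4 genes, named after their values were seen, were the monocarboxylate carrier SLC16A1 at 1.38 (1.13 to 1.69), the shuttle enzymes MDH1 at 1.28 (1.1 to 1.5) and GOT1 at 1.38 (1.1 to 1.75), and MPC2 of the mitochondrial pyruvate carrier at 1.22 (1.03 to 1.44). The count was 9 without control 4 and 3 without restricted 1. The most abundant members, GOT2 and PDHA1, had 1.06 and 1.09 with intervals that include 1.

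Mitochondrial genes had small ratios, most of them above 1, and this lean rested much on 1 animal, restricted 1. In the citric acid cycle 16 of 18 tested genes had a ratio above 1 (88.9%, against 50.7% of all tested genes). The median log2 ratio was 0.07, and 2 of the 18 had an unadjusted p below 0.05 (11.1%, against 3.60% of all genes). Without restricted 1 only 6 of the 18 were above 1 and the median was -0.02. The number above 1 was 5 within control animals alone, 17 within restricted animals alone and 8 among the animals whose titles end in A. The 2 genes at an unadjusted p below 0.05 were IDH2 and NNT. IDH2, the mitochondrial isocitrate dehydrogenase that feeds NADPH, had 1.35 (1.14 to 1.61). NNT, a transhydrogenase listed with the cycle but not an enzyme of it, had 1.27 (1.09 to 1.48). The abundant MDH2 had 1.1 (0.928 to 1.29). Across complexes I, III, IV and V of the respiratory chain 70 of 75 tested genes had a ratio above 1. This was 93.3%, against 50.7% of all tested genes, and the median log2 ratio was 0.11. Of the 75, 5 were higher at an unadjusted p below 0.05, 6.67% against 3.60% of all genes, and 1 was lower. The count of 5 was 14 without control 7 and 1 without control 2 or restricted 1. Without restricted 1, 47 of the 75 were above 1 and the median was 0.03. Members of a complex tend to vary together between animals, so a count of 70 is not 70 separate observations.

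Single subunits show how small the step was. NDUFS1 of complex I had 1.09 (0.904 to 1.31), and UQCRC2 and UQCRFS1 of complex III 1.1 (0.944 to 1.29) and 1.15 (0.919 to 1.43). COX4I1 of complex IV had 1.15 (0.959 to 1.37) and NDUFA4, listed with the same complex, 1.02 (0.834 to 1.26). ATP5F1A and ATP5F1B, the core of ATP synthase, had 1.06 (0.891 to 1.26) and 1.16 (0.976 to 1.38). Restricted 1 was the highest of the 14 animals in the summed level of each of the 4 complexes, with 5917 CPM for complex I, whereas control 4, also slow-rich, had 4187 CPM, below all but 1 slow-poor animal. The medians also depended on which animals entered. Within control animals alone the median log2 ratio of complex I was -0.01, within restricted animals alone 0.19, among the animals whose titles end in A -0.02, and without restricted 1 it was 0.01, with 20 of 37 genes above 1 where 34 had been. The difference between the diets was not shown: in the edgeR test of the interaction 0 of 12809 genes had an adjusted p below 0.05 (0.00%), and 717 had an unadjusted p below 0.05 (5.60%). DESeq2 called 12 interactions.

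The count of 3 higher genes in complex V was 5 without control 7 and 0 without control 2 or restricted 1. The genes of the chain at an unadjusted p below 0.05, named after it was seen, were NDUFC1, COX7A1, ATP5F1D, ATP5MC1 and ATP5MC3 above 1 and ATP5F1E below it. COX7A1, the muscle and heart isoform of a complex IV subunit, had the ratio 1.22 (1.01 to 1.48). ATP5F1E, the small epsilon subunit, was the only one of the 75 with groups apart, and it was lower in slow-rich muscle, at 80.4, 79.6, 72.0, 67.3 and 70.4 CPM against 84.1, 97.4, 85.5, 90.8 and 110 CPM, a ratio of 0.787 (0.682 to 0.910). Its direction was thus opposite to that of the other ATP synthase genes named here.

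Genes of fat use lay mostly above 1. In fatty acid oxidation 22 of 23 tested genes had a ratio above 1 (95.7%, against 50.7% of all tested genes), with a median log2 ratio of 0.13 and 3 genes at an unadjusted p below 0.05 (13.0%, against 3.60%). ACADM, the medium-chain acyl-CoA dehydrogenase, was apart at 236 to 278 CPM against 206 to 230 CPM, a ratio of 1.18 (1.05 to 1.33). ACADVL, its very-long-chain relative, had 1.23 (1.06 to 1.42). BDH1, a mitochondrial enzyme of ketone body use, had 2.67 (1.27 to 5.63) from 13.4, 46.3, 10.7, 21.3 and 8.74 CPM against 11.9, 6.46, 6.09, 2.94 and 5.19 CPM, in which control 1 stood far above the rest. ACSL1, which activates fatty acids, and HADHB, of the trifunctional enzyme, were the most abundant, with 1.24 (0.991 to 1.55) and 1.03 (0.810 to 1.31). Leaving out any of control 4, restricted 1, restricted 4 or restricted 6 raised the count of 3 to between 5 and 7, and it was 2 without control 2 or control 7. Within control animals alone 7 genes were higher and 1 lower at that p, and within restricted animals alone 2 were higher and 0 lower.

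For uptake and storage of fat, 17 of 20 listed genes were tested, and 13 had a ratio above 1 (76.5%, against 50.7% of all tested genes). Of these 5 had an unadjusted p below 0.05 (29.4%, against 3.60%) and 3 were apart (against 0.661% of all genes). The median log2 ratio was 0.42 within control animals alone, with 13 of 17 above 1, and -0.01 within restricted animals alone, with 7 of 17 above 1. LPL, lipoprotein lipase, which frees fatty acids from blood lipoproteins, was at 173, 158, 127, 195 and 135 CPM in slow-rich and 100, 108, 100, 82.6 and 112 CPM in slow-poor muscle, a ratio of 1.55 (1.28 to 1.88). All 4 animals between the groups, at 131 to 177 CPM, were at the slow-rich level. MGLL, the lipase of the last step of fat breakdown, was at 59.5 to 85.9 CPM against 49.7 to 56.4 CPM, a ratio of 1.34 (1.16 to 1.55). PLIN3, a coat protein of small lipid droplets, was at 12.2 to 15.5 CPM against 8.5 to 10.54 CPM, a ratio of 1.43 (1.21 to 1.69). PLIN5, the droplet protein that touches mitochondria, had 1.67 (1.18 to 2.37) and FABP3, the fatty acid carrier of muscle, 1.5 (1.01 to 2.24), both with overlap. CD36, the membrane transporter, had 1.04 (0.886 to 1.22) and VLDLR, a lipoprotein receptor, 0.912 (0.782 to 1.06). Apart from FABP3, CD36 and VLDLR, these genes were named after their values were seen.

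MB, myoglobin, the oxygen store that colours meat, did not separate the groups. It was at 15371, 16931, 13793, 16693 and 19002 CPM in slow-rich and 18140, 12985, 15286, 16352 and 11630 CPM in slow-poor muscle, a ratio of 1.13 (0.930 to 1.37). CA3, carbonic anhydrase III, long used as a slow fibre marker, was just apart, at 3798, 6919, 3696, 4288 and 4337 CPM against 3202, 3578, 3694, 3625 and 2710 CPM, a ratio of 1.35 (1.03 to 1.76). Control 1 stood above the other slow-rich animals. CKM, muscle creatine kinase, had 1.11 (0.931 to 1.32). Of the 14 genes for oxygen and phosphagen 10 had a ratio above 1 (71.4%, against 50.7% of all tested genes). At an unadjusted p below 0.05 there were 3 higher genes (21.4%, against 3.60% of all genes), a count of 5 without control 6 and of 0 without restricted 1.

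Protective genes had medians near a ratio of 1. Among 7 small heat shock genes the median log2 ratio was 0.02, and HSPB7, a chaperone of heart and muscle filaments, was the exception at 576, 317, 612, 311 and 587 CPM against 381, 381, 163, 201 and 240 CPM, a ratio of 1.93 (1.36 to 2.74). The abundant CRYAB and HSPB6 had 1.18 (0.986 to 1.42) and 1.11 (0.939 to 1.30). Among 15 antioxidant genes 11 had a ratio above 1 (73.3%, against 50.7% of all tested genes), with a median log2 ratio of 0.07. Of the 11, 2 had an unadjusted p below 0.05 (13.3% of the list, against 3.60% of all genes). These 2, named after their values were seen, were TXNRD2, a mitochondrial thioredoxin reductase, at 1.26 (1.05 to 1.49), and PRDX2, a peroxiredoxin, at 1.25 (1.02 to 1.54), and TXNRD2 was apart. The count of 2 was 1 without control 1, control 2, restricted 2 or restricted 4 and 0 without restricted 1. The most abundant members were PRDX6 at 0.865 (0.737 to 1.01) and CAT, catalase, at 1.06 (0.908 to 1.24).

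**Figure D4:**
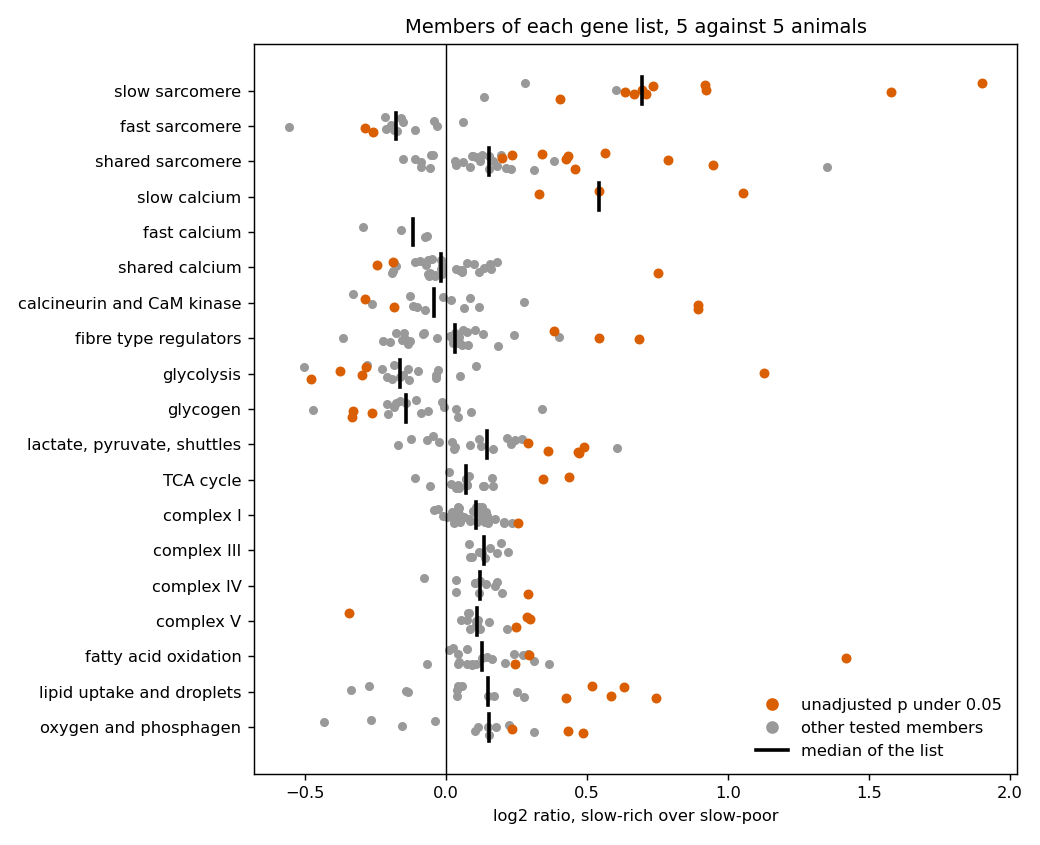
Points give the log2 ratio of slow-rich over slow-poor muscle for each tested member of the gene lists (orange, unadjusted p under 0.05; grey, the rest) and black bars the median of each list. The slow sarcomere list has a median of 0.70 and the slow calcium list 0.54, glycolysis -0.16 and glycogen -0.14, and the respiratory complexes lie between 0.11 and 0.13 with few orange points.

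Outside the lists, the genes with the smallest p that were higher in slow-rich muscle, beside MYL2, TNNT1, TPM3 and MYH7B, were SMPDL3A, LMCD1, SEC14L5 and HOMER2. LMCD1, a LIM protein that acts with calcineurin in muscle, was at 258, 188, 173, 181 and 208 CPM in slow-rich and 152, 137, 121, 121 and 142 CPM in slow-poor animals, a ratio of 1.53 (1.31 to 1.79). HOMER2, a scaffold that binds calcium channels and calcineurin targets, was at 195, 171, 159, 161 and 165 CPM against 123, 139, 96.0, 142 and 122 CPM, a ratio of 1.42 (1.23 to 1.63). Both were apart, against 0.661% of all genes, but they were picked for a small p in the same contrast. Neither was on the fixed calcium lists. SMPDL3A, a secreted phosphodiesterase, had 2.01 (1.58 to 2.56) at 8.10 to 13.7 CPM against 4.44 to 8.71 CPM. SEC14L5, a lipid-binding protein, had 2.04 (1.54 to 2.70) at 5.73 to 9.97 CPM against 3.16 to 4.85 CPM.

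The 8 genes with the smallest p on the lower side were SSX2IP, FAM180B, NEPN, NR1D1, ACVR1, FAM189A2, UAP1 and PLS1. SSX2IP, a protein of cell junctions and centrosomes, was at 13.1, 15.9, 15.9, 17.9 and 17.5 CPM in slow-rich and 20.9, 21.7, 26.3, 20.6 and 25.1 CPM in slow-poor muscle, a ratio of 0.685 (0.588 to 0.798). The animals between, at 21.6 to 25.5 CPM, all lay within the slow-poor range. NEPN, nephrocan, a small leucine-rich matrix protein, had 0.358 (0.224 to 0.573), from 2.15, 5.89, 2.59, 5.77 and 3.89 CPM against 7.41, 8.43, 18.01, 11.5 and 6.83 CPM. NR1D1, the clock repressor REV-ERB alpha, had 0.759 (0.668 to 0.861) and overlapped. ACVR1, a receptor for bone morphogenetic proteins, had 0.700 (0.594 to 0.825), FAM189A2 0.634 (0.509 to 0.791), and UAP1, which makes UDP-N-acetylglucosamine, 0.788 (0.699 to 0.887). FAM180B and PLS1, an actin bundler, had 0.392 (0.263 to 0.585) and 0.442 (0.289 to 0.677). Both were scarce, FAM180B with 0.422 to 1.46 CPM over the 10 animals and PLS1 with 2.45 to 14.9 CPM. The groups were apart in all 8 genes except NR1D1, ACVR1 and FAM189A2, against 0.518% of all genes. These 8 were picked for their small p in the same contrast, so this count adds no support.

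Markers of other cells varied with the slow share in part, and their part in the results above was not tested. All 13 endothelial genes had a ratio above 1, against 50.7% of all tested genes, with a median log2 ratio of 0.20. Of the 13, 4 had an unadjusted p below 0.05 (30.8%, against 3.60% of all genes). The count of 4 was 2 without control 4, control 7, restricted 4 or restricted 6 and 1 without restricted 1. Their summed level was 378 to 471 CPM in slow-rich and 311 to 388 CPM in slow-poor muscle. CDH5, a junction protein of vessels, had 1.23 (1.05 to 1.45). Smooth muscle markers had 10 of 11 above 1 (90.9%, against 50.7% of all tested genes), summing to 323 to 405 CPM against 276 to 355 CPM. Fibroblast markers lay on the other side, 0 of 12 above 1 with a median log2 ratio of -0.38, and summed to 545 to 893 CPM against 554 to 1204 CPM. The fibroblast median was -0.64 within controls alone and -0.06 within restricted animals alone, and the count at an unadjusted p below 0.05, 2 of 12 (16.7%, against 2.46% of all genes), was 9 without restricted 1 and 7 without restricted 5. It was 1 without control 1, control 2, control 4, control 6, restricted 4 or restricted 6 and 0 without control 7. The tendon genes FMOD and COMP had 0.560 (0.403 to 0.778) and 0.240 (0.0637 to 0.905), highest in control 2, where COMP reached only 3.81 CPM. The remaining tested gene of the tendon list had a ratio of 0.999. Summed, the tendon list overlapped, at 66.2 to 96.4 CPM in slow-rich and 65.2 to 131 CPM in slow-poor muscle. The COMP ratio was 0.472 without control 2 and 0.135 without restricted 1.

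Adipocyte markers, which could bear on the fat genes, summed to 109 to 266 CPM in slow-rich and 154 to 322 CPM in slow-poor muscle. Ratios below 1 were found for 10 of 11, against 49.3% of all tested genes, with a median log2 ratio of -0.19. The median lay on opposite sides in the 2 diet groups, a difference not tested for the list: within control animals alone the median was -0.83 with 1 of 11 above 1, and within restricted animals alone it was 0.40 with 8 of 11 above 1, 3 of them at an unadjusted p below 0.05. The exception was GPAM, an enzyme of triglyceride synthesis that muscle also expresses, with 1.41 (1.19 to 1.67) and groups apart. The defining adipocyte genes ADIPOQ and PLIN1 were at 1.17 to 14.3 and 4.92 to 26.6 CPM in slow-rich against 4.05 to 18.7 and 12.3 to 46.4 CPM in slow-poor muscle. The part of adipocytes in the levels of LPL, MGLL and PLIN3 was not tested. Macrophage, T and NK cell, B cell, red cell, Schwann and satellite cell lists overlapped between the groups in their summed levels. Of the defining markers CD79A, MS4A1 and ALAS2 had 0 reads in 3 animals each, and TNMD, NKG7 and SOX10 in 1 animal each.

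An interferon response marked 2 slow-poor libraries, restricted 4 and control 7, and restricted 7 between the groups. MX1, an interferon-induced antiviral protein, was at 42.1 and 50.9 CPM in those 2 and 90.6 CPM in restricted 7, and at 2.74 to 9.78 CPM in the 5 slow-rich animals. Between the groups 19 of 20 interferon genes had ratios below 1, against 49.3% of all tested genes. Their median log2 ratio was -1.08, which was -0.43 without control 7. Without restricted 4 and control 7, a choice made after the data were seen, that median was 0.27. The median of the slow sarcomere list was 0.75 in the same fit, and its count at an unadjusted p below 0.05 was 11 of 13. Other lists moved more in that fit: the count of lower genes was 0 for the fast sarcomere list, where it had been 2, and 0 for glycogen, where it had been 3, while that of higher genes of the respiratory chain was 16 of 75, where it had been 5.

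Immediate early genes, which respond to handling and to activity, had 12 of 13 above 1 (92.3%, against 50.7% of all tested genes). The 2 genes at an unadjusted p below 0.05 (15.4%, against 3.60%) were ATF3 at 3.61 (1.28 to 10.2) and JUN at 1.29 (1.06 to 1.56). The count of 2 was 0 without control 7 or restricted 6 and 1 without control 4, and the ratio of ATF3 was 1.98 without restricted 6. The list's median log2 ratio was 0.15, and it was -0.06 with 5 of 13 above 1 within restricted animals alone and -0.09 with 6 of 13 above 1 without restricted 4 and control 7. ATF3 was at 112 and 113 CPM in restricted 6 and control 4 and at 9.14 to 31.2 CPM in the other 3 slow-rich animals. Summed, the list ran from 583 to 1187 CPM against 448 to 1020 CPM.

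**Figure D5:**
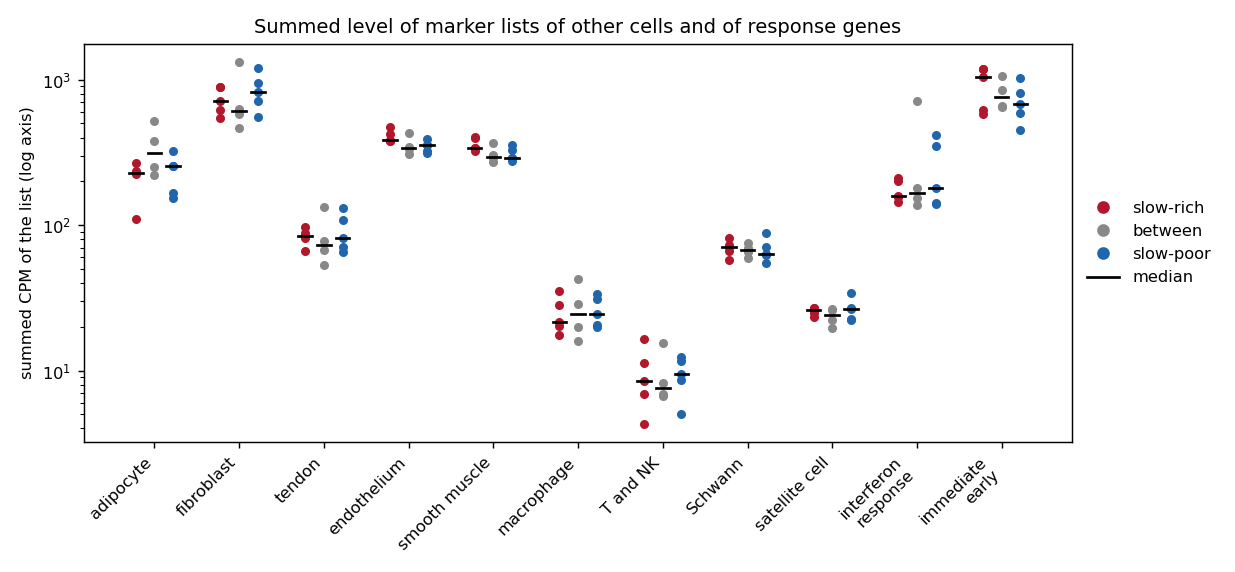
Points give the summed CPM (log axis) of each marker list in each animal, by group (red, slow-rich; grey, between; blue, slow-poor), and black bars the median of the group. Endothelial sums reach from 378 to 471 CPM in slow-rich and from 311 to 388 CPM in slow-poor muscle, fibroblast sums overlap, and 3 animals outside the slow-rich group stand high in the interferon list.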

How the data were processed

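RNA from longissimus dorsi of 14 female cattle was sequenced, 1 library per animal, and 7 animals were assigned to each diet from the treatment label. Replicate numbers only follow the order of the samples. The deposited table gives whole read counts for each gene, not normalized. The submitters' processing notes name FastQC, HISAT2, featureCounts, edgeR and the build ARS-UCD1.2, with no versions. The annotation, strand setting and treatment of multiply aligned reads (not given in the sources used here) are unknown, so reads of overlapping genes, of antisense genes and of near-identical myosins cannot be told apart.

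The table held 18078 rows, 193 of them without a read and 2604 without a usable symbol. Where a symbol occurred more than once, its most abundant row was taken. The tests used edgeR 4.0.16 under R 4.3.3. MYH1, MYH2 and MYH7 were removed, genes were kept by filterByExpr (minimum count 10, minimum total 15), TMM factors scaled the libraries, and slow-rich was tested against slow-poor with diet as a covariate by the quasi-likelihood F test with Benjamini-Hochberg adjustment at 0.05. A slope on the logit of the share over 14 animals and the interaction with diet were fitted in the same way. Only the edgeR test of slow-rich against slow-poor was run on simulated counts, and its outcome there is not reported here. CPM values and ratios were computed here. Alternatives were DESeq2 1.42.0, limma 3.58.1 voom with quality weights, other scaling, filters and covariates, subsets of animals and each animal left out. Of 91 pairs of libraries, the closest had a chi-square per degree of freedom of 12.8 between their counts, so none differed by sampling noise alone.

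The animals, the comparison and the 36 gene lists (554 entries, 15 of them not named in the table) were chosen with earlier results of these data known. Genes named are the slow markers, the 11 isoform pairs, in each direction the 8 named genes of smallest p, from every list the 2 most abundant tested members (those of other cells and of responses are given by their sums), and PPARGC1A, MB, CA3, CD36, FABP3, MYH4 and MYH6. Members past the adjusted threshold would have been added, and there were 0. Other genes were named after their values were seen: members of the lists with a low p, members of short lists described in full, and markers of other cells. A few genes that these rules name are not reported here.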

Additional observations from a re-analysis of the deposited data

Results flagged for a closer look

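Dixon's criterion was applied to 272 groups of 5 animals, across the genes named, the slow share and the total counts. In 15 of them a single animal stood far from the other 4. Chance gives about 5% of such groups, so 15 of 272 is near the number that chance alone would give. In slow-rich muscle control 1 was high for MYBPC1 (16046 CPM) and CA3 (6919 CPM), and restricted 1 was low for UAP1 (64.7 CPM) and MYH14 (119 CPM). In slow-poor muscle control 7 was high for CSRP3 (132 CPM), restricted 4 for PRDX6 (354 CPM) and restricted 5 for PRKAG3 (267 CPM), while restricted 5 was low for FAM180B (0.892 CPM). Restricted 2 was high for XIRP1 (194 CPM), CASQ2 (33.4 CPM) and PLS1 (14.9 CPM) and low for MYLK2 (2200 CPM). Control 2 was low for TNNI2 (5880 CPM), TPM2 (9142 CPM) and MDH2 (640 CPM). Restricted 2 held 4 of the 15 and control 2 held 3, a tally that was not tested. Both kept slow-poor values of MYL2 and TNNT1.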

How the results depend on the processing

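The median log2 ratio of the slow sarcomere list lay between 0.65 and 0.80 under 24 alternatives, with 9 to 11 genes higher at an unadjusted p below 0.05. The number of genes past the adjusted threshold was 0 by edgeR, 2 with library size scaling (TNNT1 and MYL2), 46 by DESeq2, 1 within control animals alone (CST6), 1 within restricted animals alone (a gene with no symbol) and 0 to 1 when each animal was left out in turn (MYOM3 without restricted 1). For the slope over 14 animals it was 0, then 4 with library size scaling, 37 by DESeq2, 1 by voom, 1 with the first title letter as a covariate and 0 to 1 with each animal left out. For the interaction with diet it was 0, and 12 by DESeq2. The cause of these differences was not tested. No paired analysis was possible because replicate numbers only follow the order of the samples. With 5 animals a group, intervals of ratios are wide, so a small difference is not resolved. Of 134 genes named, 26 changed direction under an alternative, most of them close to a ratio of 1. Their log2 ratios on the changed side follow. With the first title letter as a covariate, these were SLN -0.011, PERM1 -0.0074 and HADHB -0.0067. By voom, this was PRKAG3 -0.024. With no covariate, these were ACTA1 -0.031 and PERM1 -0.017. Among titles ending in A, these were CASQ1 0.0067, GOT2 -0.074, PDHA1 -0.015, NDUFS1 -0.038, NDUFA4 -0.089, ATP5F1A -0.12, HADHB -0.15, VLDLR 0.044, TXNIP -0.10 and CAT -0.060. Within controls alone, these were ANKRD2 -0.18, ATP2A1 0.052, CASQ1 0.045, PPP1R3A 0.011, GOT2 -0.076, UQCRC2 -0.016, NDUFA4 -0.16 and HADHB -0.36. Within restricted animals alone, these were MYH6 -3.01, MYH4 0.14, ACTA1 -0.075, RYR1 -0.054, SLN -0.012, PRKAG3 -0.080, CD36 -0.061, TXNIP -0.37 and CAT -0.024. Without restricted 4 and control 7, these were MYH6 -0.60, PRKAG3 -0.10, GAPDH 0.00066 and MX1 0.27. With each animal left out in turn the ranges were ACTA1 -0.047 to 0.12, ATP5F1A -0.029 to 0.16, GOT2 -0.045 to 0.14, HADHB -0.13 to 0.18, MYH4 -2.13 to 0.95, MYH6 -1.57 to 2.13, MYOZ1 -0.017 to 0.17, NDUFA4 -0.030 to 0.18, PERM1 -0.031 to 0.058, PRKAG3 -0.17 to 0.16, SLN -0.048 to 0.15, TBC1D4 -0.021 to 0.10 and TXNIP -0.085 to 0.17.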
